A study of Lemna gibba and Lemna japonica and Spirodela polyrhiza with 12 samples.

Results

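The 6188 loci described here are the small RNA loci that lie on the 20 numbered chromosomes of Spirodela polyrhiza accession Sp9509, a small floating duckweed. They were taken from the list of Sp9509 loci as every line with a size call field, placed on a chromosome named chr and a number, which left out 127 loci on the chloroplast and mitochondrial sequences. They are 6188 of 6315 loci in that list and of 79572 loci in the lists of all 4 duckweed accessions of the series. Whole fronds of this genotype were grown as sterile cultures in medium with sucrose, and small RNA was sequenced from 3 biological replicates with no treatment. Sp9509 is a single accession, so it stands for its species only as far as this clone does. The deposited list combines the 3 replicates. There is therefore 1 value for each locus, no spread between replicates and no test, and the intervals given are 95% intervals of counting error alone. They take loci as independent, so they are too narrow where loci cluster.

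In plants, Dicer-like enzymes cut double-stranded RNA into small RNAs of set lengths. MicroRNAs, mostly 21 nt long, are cut from the folded hairpin of a single transcript, while 21 and 22 nt small interfering RNAs come from double-stranded copies of transcripts. Small interfering RNAs of 24 nt guide DNA methylation to repeats, and Spirodela polyrhiza is known for little DNA methylation. A locus here is a stretch where reads pile up, with a size class that names the length dominating its reads. Its strand is plus, minus or neither, as the caller set it. Loci called neither are said below to give reads from both strands. Whether the other loci also held some reads from the opposite strand was not tested. Loci without size call are those that the caller marked N in place of a size, and the rule for that mark was not stated.

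The 6188 loci held 7130729 reads. Of them, 81 are microRNA hairpins with 5000458 reads, and the other 6107 loci held 2130271 reads. The smallest locus held 5 reads. Hairpins are kept apart below, and "other loci" means the 6107. The chromosomes spanned 138 Mb in all, each measured from position 1 of assembly asm3v1 to the end of its last locus, since assembly lengths were not used here.

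Loci were spread over all chromosomes at much the same density, with a few exceptions. Outside hairpins there were 44.2 loci per Mb (43.1 to 45.3), and chromosomes ranged from 32.3 on chr17 (27.3 to 37.96) to 51.8 on chr13 (46.3 to 57.7). The density on chr13 was 1.60 times that on chr17 (1.32 to 1.95). In 16 of the 20 chromosomes the interval held the value over all chromosomes, as the plot of loci per Mb by chromosome shows. By counting error, the exceptions were chr13 on the high side, and chr3 at 37.2, chr18 at 34.6 and chr17 on the low side. These intervals take loci as independent. Loci lay in rows instead, and counts in 1 Mb windows had a variance 3.05 times their mean, so the intervals are too narrow. On chr13 a single row of 22 loci made up part of its 327. Which chromosomes differ beyond such clustering was not tested. After chr13, the densest chromosomes were chr20 at 50.3 and chr6 at 47.9 loci per Mb, which do not stand clear of the rest by counting error. Among loci of at least 100 reads the chr13 to chr17 ratio was 1.17.

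**Figure D1:**
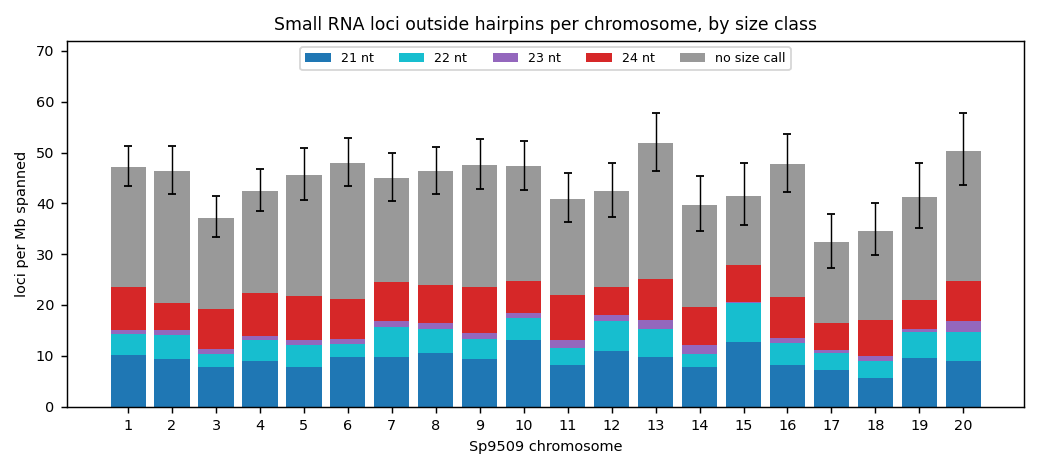
Loci outside hairpins per Mb spanned on each of the 20 chromosomes, stacked by size class; error bars are exact Poisson 95% intervals of the total. Totals lie between 32.3 on chr17 and 51.8 on chr13, and chr15 has the smallest layer without size call.

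Loci without size call were the largest class with 3026 loci, 49.5% of the other loci (48.3 to 50.8). They were followed by 1296 loci of 21 nt, 1040 of 24 nt, 594 of 22 nt and 151 of 23 nt. Per Mb this came to 21.9 loci without size call, 9.37 of 21 nt, 7.52 of 24 nt, 4.30 of 22 nt and 1.09 of 23 nt. All other loci together covered 2.54% of the length spanned. No other locus was shorter than 401 bp, so this share also reflects how the edges of loci were drawn.

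The makeup by class departed most on chr15. There 21 nt loci made up 30.7% of 189 loci (24.6 to 37.6), against 20.9% on the other 19 chromosomes (19.9 to 21.97). The 22 nt class reached 18.5% on chr15 (13.6 to 24.7), against 9.45% elsewhere (8.73 to 10.2). Loci without size call fell short there, at 32.8% (26.5 to 39.8) against 50.1% (48.8 to 51.4). The share of 24 nt loci was nearly the same, 17.5% on chr15 and 17.0% elsewhere. Chr15 was thus rich in 21 and 22 nt loci and poor in loci without size call. Part of this came from rows of loci under 10 kb apart. Rows of 11, 10 and 9 loci on chr15 held 6, 5 and 5 loci of 21 nt and 5, 3 and 4 of 22 nt. In these rows 11, 9 and 9 loci gave reads from both strands. The intervals take loci as independent, and whether chr15 departs beyond such clustering was not tested.

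Strand and length set chr15 apart as well. On chr15, 60.8% of loci gave reads from both strands (53.7 to 67.5), against 44.0% on the other chromosomes (42.8 to 45.3), and 31.2% were over 600 bp (25.04 to 38.1), against 19.2% (18.2 to 20.2). Within classes, two-strand loci were more frequent on chr15 in the 21 and 22 nt classes, 84.5% against 67.1% and 82.9% against 58.5%, with 58 and 35 loci of these classes on chr15. Among 33 loci of 24 nt the share was 90.9% (76.4 to 96.9) against 87.2%. Among 62 loci without size call it was lower, 11.3% (5.58 to 21.5) against 19.0% (17.6 to 20.4), and the only 23 nt locus was on a single strand. The median locus of chr15 held 24 reads, the highest of the 20 chromosomes, against a median of 20 over chromosomes. Strand and length both move with depth, as described below, and were not compared at like depth here. Chr15 was singled out after its values were seen.

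Smaller departures were seen on other chromosomes. Chr10 had 27.7% of 21 nt loci (23.4 to 32.4) and, with 13.1 per Mb, the highest density of this class. The 22 nt share was 13.9% on chr12 and 13.4% on chr7, and 5.26% on chr6. The 24 nt share was lowest on chr2, 11.6% (8.76 to 15.2), and highest on chr11, 21.4%, whose interval of 17.0 to 26.6 just holds the value over all chromosomes. Across the 20 chromosomes the densities of 21 and 22 nt loci went together, with a Pearson r of 0.61, whereas 21 and 24 nt loci gave an r of -0.18. In 126 full windows of 1 Mb the same pairs gave r of 0.44 and 0.11. Chromosomes and windows share one set of libraries, so these r are descriptions only.

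Within chromosomes, loci were unevenly placed. A 1 Mb window held 44.3 other loci on average, from 19 to 81, and the variance over windows was 3.05 times the mean. The ratio was 2.49 for 24 nt loci, 2.47 for loci without size call, 1.98 for 21 nt loci, 1.87 for 22 nt loci and 1.13 for 23 nt loci. Classes with more loci reach larger ratios at like unevenness, so no order of classes is read from it. The fullest window was the first Mb of chr12, with 81 loci, 21 of them of 21 nt and 18 of 22 nt, and with 575876 reads. Next came the window from 3 to 4 Mb on chr13 with 75 loci, of which 26 were 24 nt, and the window from 2 to 3 Mb on chr7 with 70. At the other extreme, 188 stretches over 100 kb held no locus at all, hairpins included, and made up 19.0% of the length spanned. The longest of them measured 407 kb on chr17 (3762787 to 4169857), 329 kb on chr15 (2131806 to 2460403) and 303 kb on chr19 (3361190 to 3663999).

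From the ends to the middle of chromosomes the density of loci was nearly flat, except in the outermost 20 kb. Each chromosome was folded at its middle, so that position runs from either end to the middle, and divided into 5 zones of equal width. From zone 1 at the ends to zone 5 in the middle, there were 47.2, 42.6, 45.4, 43.8 and 41.95 other loci per Mb. The outer zone thus held 1.12 times as many loci as the inner zone (1.04 to 1.22), and was the denser of the pair in 14 of 20 chromosomes. Single chromosomes differed widely in this ratio, from 0.447 on chr13, with 38 loci in the outer and 85 in the inner zone, to 2.26 on chr6, with 104 and 46.

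With loci of all depths counted, the lean to the ends was clearest in 21 nt loci. They fell from 11.5 per Mb in zone 1 to 7.56 in zone 2 and stood at 9.01 in zone 5, a ratio of outer to inner zone of 1.28 (1.09 to 1.51), with 13 chromosomes denser outside and 7 denser inside. For 22 nt loci the ratio was 1.17 (0.916 to 1.501) and for loci without size call 1.11 (0.989 to 1.24), both intervals holding 1. Among loci of at least 100 reads the ratio was 1.11 for 21 nt loci and 0.714 for 22 nt loci. It was 1.98 for loci without size call and 1.47 for 24 nt loci, so 21 nt loci did not lean most at that depth. The 24 nt class had another profile, lowest at both extremes. It had 6.73 loci per Mb in zone 1, 7.81 in zone 2, 8.75 in zone 3, 7.63 in zone 4 and 6.69 in zone 5. Its outer to inner ratio was 1.01 (0.821 to 1.23), and the interval of zone 3, 7.68 to 9.93, overlaps those of zones 1 and 5 at its lower edge.

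The outermost 20 kb held a dense set of loci on most chromosomes. These 40 chromosome ends, 0.8 Mb in all, had 150 other loci or 188 per Mb (159 to 220), against 43.4 per Mb (42.3 to 44.5) farther than 100 kb from any end, which is 4.32 times as many (3.68 to 5.08). The same ratio was 8.66 for 21 nt loci (6.72 to 11.2), 6.92 for 22 nt loci (4.57 to 10.5) and 6.42 for 24 nt loci (4.65 to 8.86). For loci without size call, the commonest class elsewhere, the ratio was 1.49 (1.02 to 2.19), but 0.908 without chr20 and 0.804 at the starts of chromosomes alone. Sized classes thus made up most of the ends: 41.3% of loci there were 21 nt, 15.3% were 22 nt and 25.3% were 24 nt, while 17.3% had no size call.

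Loci at the ends also differed in strand and length. Reads came from both strands in 127 of 150 loci, 84.7% (78.0 to 89.6), against 43.9% in the interior (42.6 to 45.1). Within the 21 nt class the share was 88.7% at the ends (78.5 to 94.4) and 67.3% in the interior (64.6 to 69.9), and among 22 nt loci it was 91.3% (73.2 to 97.6) and 59.0% (54.8 to 63.0). Loci over 600 bp were 36.7% of all loci at the ends, against 19.3% in the interior. Of the 24 nt loci at the ends 55.3% were over 600 bp, against 31.7% in the interior, and of the 21 nt loci 40.3% against 30.1%. The 22 nt class did not share this, with 17.4% at the ends against 20.1%. The longest 21 nt locus, 5704 bp on chr1 from 4582 to 10285 with 1071 reads, and the longest 24 nt locus, 5661 bp on chr19 from 3527 to 9187 with 720 reads, were both found there. Most of these loci were shallow, with a median of 27 reads against 20 in the interior. Strand and length both move with depth, as described below.

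Terminal loci were found on most chromosomes. Of 40 ends 34 held at least 1 other locus within 20 kb, 29 held a 21 or 22 nt locus and 20 held a 24 nt locus. The end of a chromosome is set here by its last locus, which puts a locus there by construction. The start is not set in this way, and the first 20 kb alone held 69 loci, 172.5 per Mb, on 15 of 20 chromosomes, of which 31 were 21 nt and 18 were 24 nt. On this side 97.1% of loci gave reads from both strands. The ends differed in which class they held: the first 20 kb of chr1 had 6 loci of 21 nt and 3 of 24 nt, the last 20 kb of chr19 had 10 loci all of 21 nt, the last 20 kb of chr11 had 7 loci all of 24 nt, and those of chr20 had 11 without size call among 13. These 4 ends were chosen after their values were seen. The starts of chr2, chr5, chr8, chr13 and chr18 held no locus.

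Just inside the ends the 24 nt class was sparse, most clearly on the start side. Between 20 and 100 kb from an end there were 8 loci of 24 nt in 3.2 Mb, 2.50 per Mb (1.08 to 4.93), against 7.40 per Mb farther inside. Of these, 1 lay on the start side, 0.625 per Mb (0.0158 to 3.48), and 7 on the end side, 4.375 per Mb (1.76 to 9.01), where the interval holds the interior value. From 100 to 500 kb the density was 5.44, and from 500 kb to 1 Mb it was 7.25, near the interior level. Densities of 21 nt loci between 20 and 100 kb, 10.3 per Mb (7.10 to 14.5), and of loci without size call, 24.7 (19.5 to 30.8), lay near their interior levels of 8.95 and 21.8. Without the outermost 20 kb the outer to inner ratio of zones was 1.06 for 21 nt loci (0.893 to 1.26), 0.824 for 24 nt loci (0.664 to 1.02) and 1.03 for all classes (0.945 to 1.11). The lean of 21 nt loci to the ends therefore rested on the outermost 20 kb. What these stretches contain, telomere repeats or other sequence, was not tested.

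**Figure D2:**
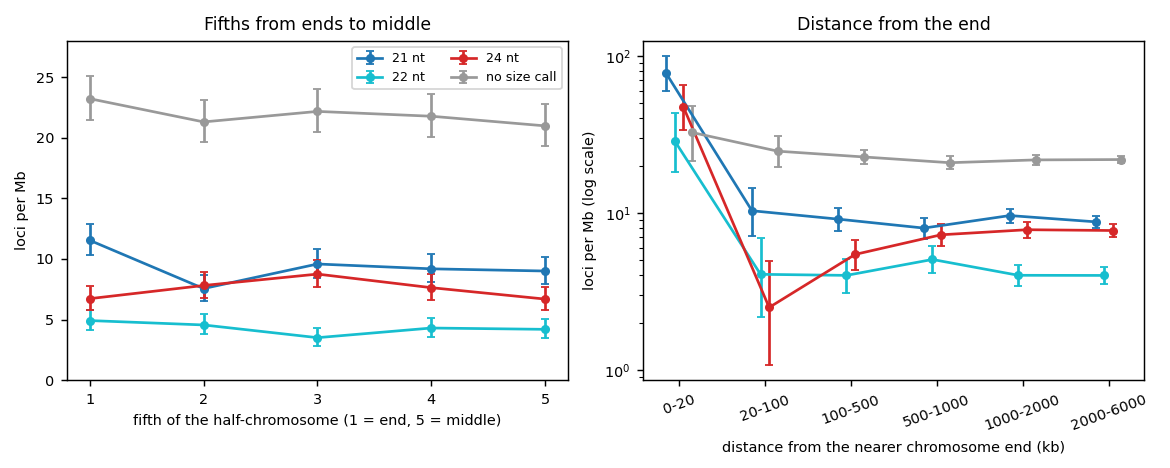
Loci outside hairpins per Mb by zone from the ends (1) to the middle (5) of chromosomes, left, and by distance in kb from the nearer end, right (log scale), for 4 size classes, summed over 20 chromosomes with Poisson 95% intervals. Zones differ little, while 21 nt loci rise to 77.5 per Mb in the outermost 20 kb and 24 nt loci drop to 2.50 between 20 and 100 kb.

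Reads were far less evenly spread than loci. With hairpins included, chr5 held 23.95% of all reads, chr3 19.0% and chr12 18.1%, whereas chr4 held 0.632%. Hairpins made up 96.3% of the reads of chr5 and 95.5% of those of chr3, but 0.0413% of those of chr7. Outside hairpins, chr12 held 30.2% of the reads with 251 of 6107 loci, followed by chr6 with 14.2% and chr1 with 11.4%, and chr19 was lowest with 0.395%. The median locus, by contrast, held between 16 reads on chr18 and 24 on chr15, so chromosomes differed by their few deep loci and not by the typical locus.

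How much of the other reads the deepest locus held varied widely over chromosomes, with a median of 29.6%. The deepest other locus, a 21 nt locus of 1829 bp on chr6 from 4929309 to 4931137 with 224040 reads from both strands, held 73.9% of the other reads of its chromosome. On chr14 a 22 nt locus with 33661 reads held 73.9%, while on chr19 the deepest locus held 8.55%. The deepest locus without size call, with 123021 reads on the minus strand of chr1 from 11544592 to 11546605, was the last locus of that chromosome. The next in that class, with 57383 reads on the minus strand, lay on chr8 from 4865313 to 4866100. The plot of reads by chromosome shows the deepest locus close to the chromosome total on chr6 and chr14.

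**Figure D3:**
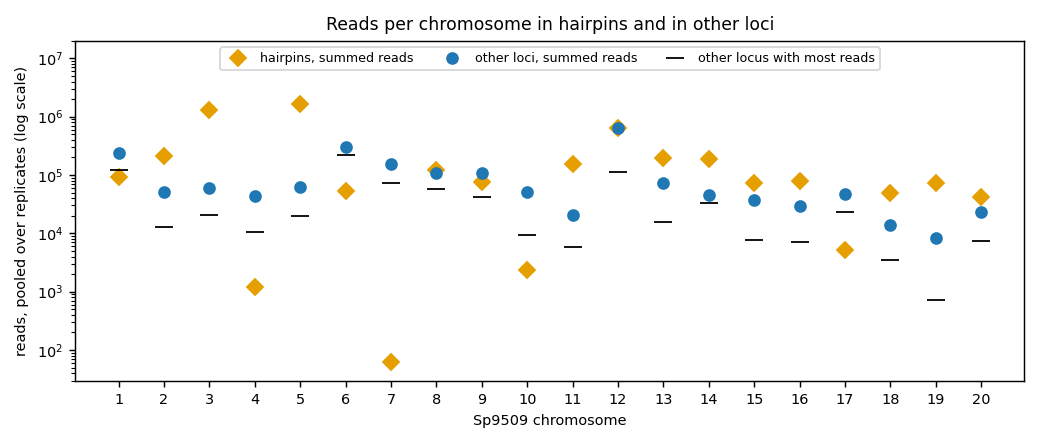
Reads summed over hairpins (diamonds) and over other loci (circles) on each chromosome, with the other locus that has most reads (dash), on a log scale. Hairpin reads range from 63 on chr7 to 1644965 on chr5, and other reads from 8424 on chr19 to 643598 on chr12.

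The 22 nt class was concentrated in 2 places. Its 10 deepest loci held 88.6% of its reads. A region of chr12 between 300 and 400 kb held 17 other loci with 512176 reads, 24.04% of all reads outside hairpins, and its 8 loci of 22 nt held 65.0% of the reads of that class. Of these, 4 were of like depth: 112634 reads at 320383 to 321021, 93515 at 329082 to 329930, 93544 at 348942 to 349510, all on the minus strand, and 94560 on the plus strand at 369673 to 370670. A 21 nt locus with 70574 reads lay among them, from 346017 to 346705. In the whole region 99.9% of reads fell in loci of a single strand, and its 7 deepest loci held 99.2% of reads, beside neighbours with as few as 24.

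The other place was on chr7, where 12 loci within 44.6 kb (3671668 to 3716247) held 98088 reads, 64.3% of the other reads of that chromosome. Its 7 loci of 22 nt held 15.01% of the reads of the class, most of them in a locus of 2451 bp on the plus strand, from 3707353 to 3709803, with 72887 reads. The longest 22 nt locus, 3218 bp from 3689408 to 3692625 with 12933 reads, was part of the same row. Here 7 of the 12 loci gave reads from both strands, but 94.7% of reads fell in loci of a single strand. Over all 22 nt loci 59.9% of loci gave reads from both strands (55.9 to 63.8).

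By zone, the outer zone held 43.8% of the reads outside hairpins and the inner zone 26.6%. Without the region on chr12 the shares were 26.0% and 35.0%. Without the deepest locus on chr6, which lies in the inner zone, they were 48.9% and 17.9%, and without both places 30.1% and 24.5%. The order of these zones in reads thus depended on which of these deep places was counted. The median reads of a locus were 21 in zone 1, 20 in zones 2 to 4 and 19 in zone 5.

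The 24 nt class was even in depth. Its deepest locus had 1141 reads, on the minus strand of chr9 from 6049364 to 6049790, the next had 789 on the plus strand of chr1 from 5821056 to 5821483, and its 10 deepest loci held 12.1% of its reads. Of the 1040 loci 1 reached 1000 reads, compared with 48 of 1296 loci of 21 nt, 30 of 594 of 22 nt and 77 of 3026 without size call. The 23 nt class rested on 2 loci, which held 56.8% of its 29346 reads: 9421 reads on the plus strand of chr10 (1910233 to 1910659) and 7247 on the plus strand of chr8 (4982522 to 4983104).

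Strand use ranged more widely over size classes than over chromosomes. Reads came from both strands in 87.3% of 24 nt loci (85.1 to 89.2), 67.9% of 21 nt loci (65.3 to 70.4), 59.9% of 22 nt loci, 18.8% of loci without size call (17.5 to 20.3) and 4.64% of 23 nt loci (2.26 to 9.26). This call moves with depth. Between 5 and 9 reads 25.4% of 59 loci of 24 nt were on both strands, against 90.1% of 565 loci with 10 to 29 reads and 93.8% of 308 with 30 to 99. At 1000 reads or more, two-strand loci were 20 of 48 in the 21 nt class, 6 of 30 in the 22 nt class and 4 of 77 without size call. Loci of such depth were thus mostly single-stranded in these 3 groups. The share of two-strand loci over chromosomes lay between 39.4% on chr13 and 49.6% on chr11, with chr15 at 60.8%. Among single-strand loci plus and minus were balanced, with 1716 and 1670 loci.

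Length followed class and depth. The median other locus was 422 bp long, and the shortest 401 bp. The commonest length was 421 bp among 21 nt loci, 422 bp among 22 nt, 423 bp among 23 nt and 424 bp among 24 nt loci, and 418 bp among those without size call. The commonest length thus exceeded the size of the small RNA by the same amount in each of the 4 sized classes, and 49.0% of 23 nt loci had exactly 423 bp. The rule that sets the edges of a locus was not stated. Loci over 600 bp were 32.4% of the 24 nt class (29.6 to 35.3), 30.2% of 21 nt (27.7 to 32.7), 20.2% of 22 nt (17.2 to 23.6), 11.4% without size call (10.3 to 12.5) and 1 of 151 loci of 23 nt. With 100 to 999 reads the median was 2160 bp for 107 loci of 24 nt, 1096 bp for 183 of 21 nt, 814.5 bp for 38 of 22 nt, 521.5 bp for 330 without size call and 425 bp for 11 of 23 nt. At this depth 24 nt loci were thus mostly long, 88.8% of them over 600 bp, and 23 nt loci were not. The 2 deepest 24 nt loci were short, however, with 427 bp at 1141 reads and 428 bp at 789 reads. The longest 23 nt locus had 692 bp with 26 reads, on chr20 from 3248898 to 3249589. The longest locus of all, without size call, had 8952 bp and 7376 reads on the plus strand of chr20 from 3965134 to 3974085, close to the end of that chromosome.

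Loci lay close together, 24 nt loci closest of all. The gap to the nearest locus on the chromosome had a median of 333 bp for 24 nt loci, with quartiles of 103 and 1499.5 bp. The median was 1212.5 bp for 21 nt loci, 2236 bp for 22 nt, 5317 bp without size call and 6351 bp for 23 nt. A neighbour within 10 kb was found for 87.8% of 24 nt loci (85.7 to 89.6), 77.1% of 21 nt loci, 74.6% of 22 nt, 64.5% without size call and 62.3% of 23 nt. By chromosome the median gap ranged from 1396 bp on chr13 to 4068.5 bp on chr18, and by zone it was shortest at the ends, 2083 bp, against 2339 to 3260 bp in zones 2 to 5.

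Neighbours tended to be of the same class. The nearest locus of a 24 nt locus was also 24 nt in 57.0% of cases (54.0 to 60.0), where 24 nt loci were 16.8% of all loci. The share was 37.96% for 21 nt loci (35.4 to 40.6), which were 22.1% of all, and 64.1% for loci without size call (62.4 to 65.8), which were 49.0% of all. For 22 nt loci it was 14.8% (12.2 to 17.9), against 9.63%, while their nearest locus lacked a size call in 37.9% of cases and was 21 nt in 32.2%. The 23 nt loci stood mostly beside loci without size call, 57.0%, and beside 24 nt loci in 11.3% of cases. In runs of 3 or more loci of the same class, each under 10 kb from the next whatever lay between, were 46.5% of 24 nt loci, 25.8% of 21 nt loci, 25.3% of loci without size call, 5.56% of 22 nt loci and 1.99% of 23 nt loci. There were 134 such runs of 24 nt loci, on all 20 chromosomes, and the longest had 9 loci with 306 reads in all, on chr13 from 3402747 to 3415105.

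Strand was shared between close neighbours as well. Of 326 consecutive pairs of single-strand loci under 1 kb apart, 91.1% were on the same strand (87.5 to 93.7). The share was 69.8% at 1 to 5 kb (65.1 to 74.1), 54.3% at 5 to 10 kb (48.4 to 60.1) and 52.0% at 10 to 50 kb (48.9 to 55.0). The same decline was seen in pairs that both lacked a size call, 91.6% under 1 kb, and in the other pairs, 89.7%.

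**Figure D4:**
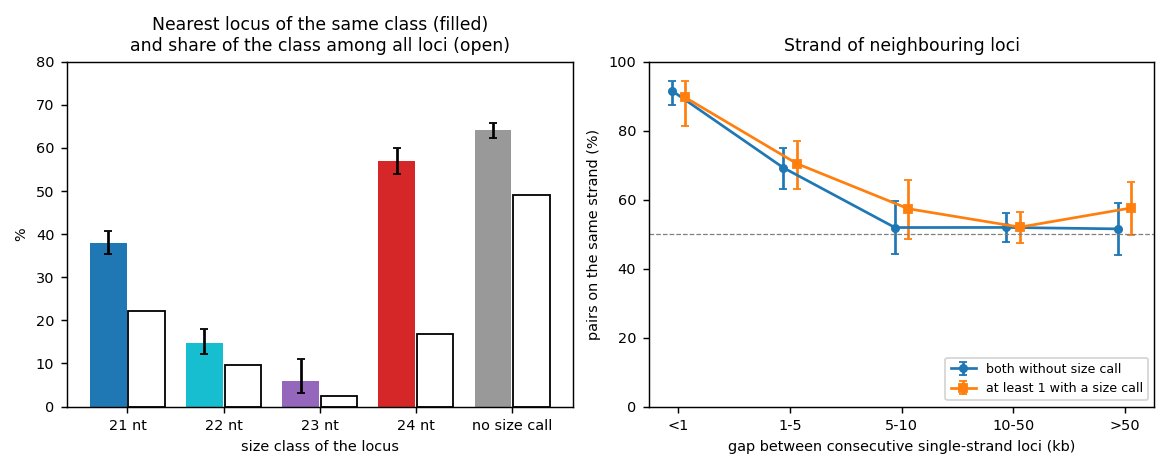
Left, share of loci whose nearest locus has the same size class (filled bars, Wilson 95% intervals) beside the share of that class among all 6188 loci (open bars); right, share of consecutive single-strand loci on the same strand by the gap between them in kb. The 24 nt class stands farthest above its open bar, 57.0% against 16.8%, and strand agreement falls from about 91.1% under 1 kb to 54.3% at 5 to 10 kb.

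Chained at gaps under 10 kb, the other loci formed 3066 islands, of which 1729 were single loci. Islands of 3 or more loci numbered 711 and held 51.2% of loci. The 227 islands of 5 or more were found on all 20 chromosomes, with a median width of 13.2 kb. Of 1337 islands with at least 2 loci, 505 held a single class.

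The pair of largest islands were rows of loci mostly without size call, with recurring steps. The largest had 29 loci on chr6 from 2858176 to 2891559. It began with 4 loci of 21 nt among its first 5, and its 25 loci without size call included 24 on the minus strand. Reads per locus were low and even, from 19 to 155 with a median of 32. Of its 28 steps from start to start, 8 were between 400 and 600 bp and 8 between 900 and 1100 bp. The next had 22 loci on chr13 from 4728443 to 4761011, all without size call, 20 of them on the minus strand, with 19 to 53 reads each. There 15 of 21 steps were between 1100 and 1200 bp and the median step was 1176 bp. An island of 21 loci on chr5 from 4412081 to 4449477 with 18 lacking a size call, had 1 step between 1100 and 1200 bp, 1 between 400 and 600 bp and none in the other range, and its loci ranged from 6 to 5969 reads. The ranges of steps were set after the values were seen, and what is repeated there was not tested.

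Among sized classes, the longest run of 21 nt loci had 12 on chr3 from 6565100 to 6603954, 11 of them on both strands, with 794 reads. A run of 11 on chr10 from 3420747 to 3443773 had 7 on the plus strand and 3 on neither, with 1088 reads. Another run, 10 loci with 241 reads, ended with the last locus of chr19. The longest run of 22 nt loci was the row of 7 on chr7 described above.

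**Figure D5:**
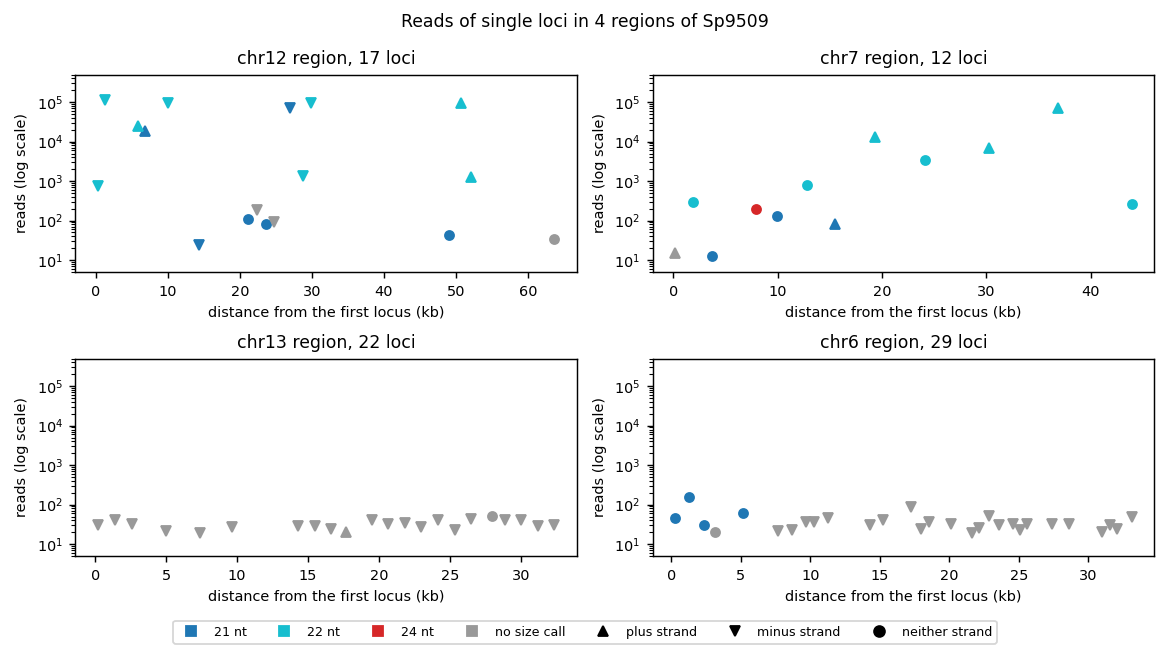
Reads of single loci (log scale) against the distance in kb from the first locus in a region of chr12, chr7, chr13 and chr6; colour gives the size class and the marker the strand. The chr12 region has 4 loci of 22 nt with 93515 to 112634 reads, while the loci of chr13 stay between 19 and 53 reads.

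Hairpins were few and spread over all 20 chromosomes. There were 81, or 0.586 per Mb, from 1 each on chr4, chr7, chr15, chr17 and chr18 to 10 on chr1. Per Mb they were densest on chr12 and chr19, at 1.52 each. All were single-stranded, which follows from a hairpin being the fold of a single transcript, with 40 on plus and 41 on minus. They were 105 to 259 bp long with a median of 132 bp. Of the 81, 72 were called 21 nt, 2 were called 22 nt and 7 had no size call, while the mature strand was 21 nt long in 74, 22 nt in 5 and 20 nt in 2. The mature strand, the product that is loaded to find target transcripts, lay on the 5′ arm in 48 hairpins and on the 3′ arm in 33, as the list names the arms. With the names exchanged in 9 hairpins whose star line held more reads, the arms would count 53 and 28.

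From the ends to the middle, zones held 20, 18, 15, 16 and 12 hairpins, an outer to inner ratio of 1.67 whose interval of 0.827 to 3.36 holds 1. The median hairpin had 24780.5 reads in zone 1, 5368.5 in zone 2, 10531 in zone 3, 4828.5 in zone 4 and 610.5 in zone 5, and the sums were 42.5%, 35.1%, 6.46%, 13.4% and 2.58% of hairpin reads. These sums are set by a pair of hairpins. One, of 209 bp on the minus strand of chr5 from 6909384 to 6909592 in zone 1, had 1506676 reads, 30.1% of all hairpin reads. The other, of 123 bp and 22 nt on the minus strand of chr3 from 7343199 to 7343321 in zone 2, had 1194077 reads or 23.9%.

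The 10 deepest hairpins held 76.3% of hairpin reads. After the first pair came hairpins on chr12 (793713 to 793840) with 238889 reads, on chr13 (2477625 to 2477833) with 177213 and on chr12 (5677214 to 5677335) with 141933. The remaining 5 were on chr8 (5407654 to 5407849) with 119339 reads, chr2 (2961735 to 2961951) with 114011, chr14 (1608293 to 1608497) with 109398, chr12 (5674069 to 5674200) with 109379 and chr11 (4260669 to 4260787) with 103284. Chr12 thus had 3 of the 10. It was also the chromosome with the most reads outside hairpins, so it was deep in both kinds of locus. In contrast, the hairpins of chr4, chr7 and chr10 held 1212, 63 and 2393 reads in all.

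Hairpins stood farther from their neighbours than other loci did. The median gap to the nearest locus was 8870 bp, against 2557 bp for other loci, and 51.9% had a locus within 10 kb, against 72.05%. Groups of hairpins under 10 kb apart numbered 5 and held 11 hairpins, 13.6% (7.76 to 22.7), and each group lay on a single strand. The only group of 3 was on the minus strand of chr12, from 5671530 to 5677335, with hairpins of 130, 132 and 122 bp and with 48423, 109379 and 141933 reads. The first and second gave their mature strand from the 5′ arm and the last from the 3′ arm. In the last the star line held 78295 reads and the mature line 37094. Pairs were found on chr3, chr5, chr11 and chr19. On chr3 the deep 22 nt hairpin lay 4303 bp from a hairpin of 142 bp with 47104 reads. Of these reads the mature line held 7 and the star line 123.

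In 9 hairpins the line called star held more reads than the line called mature, 8 of them with over 1000 reads. They included the pair on chr11 (6090339 to 6093556), where star lines held 23671 and 22179 reads and mature lines 878 and 7. Whether the names of the arms are exchanged there was not tested. Over all hairpins the mature lines held 80.8% of reads, and 83.004% with the larger line taken in those 9. In some hairpins the mature and star lines both held few of the reads. They held 295 and 195 of 41834 on chr14 (2881140 to 2881307) and 26 and 1 of 1331 on chr9 (640541 to 640672). On chr2 (1598650 to 1598778) they held 6 and 1 of 1217, and on chr12 (5716027 to 5716151) 13 and 2 of 203. Where the remaining reads of these hairpins lie was not tested.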

How the data were processed

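Small RNA libraries from whole fronds, 3 replicates of Sp9509, were prepared with a NEXTflex kit for a NextSeq 500, per the labels' protocols. Tools in the submitters' processing notes are deepTools and fastp 0.20.1, whose roles are not stated. Per the deposited file itself, ShortStack made 1 list of loci on assembly asm3v1 for all replicates. Its settings, and where reads that match several places were put, which bears on repeats, are not stated. The values are the authors' deposited counts of reads per locus, not normalized and pooled over replicates. Mature and star lines repeat hairpin reads and enter no total.

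Computed here were densities over each chromosome's span with exact Poisson intervals, shares with Wilson intervals, and ratios with intervals from a binomial split of both counts, all at 95%. They cover counting error only, since reads carry no molecular identifiers and loci are not replicates. Position is the midpoint of a locus. The nearest neighbour is the smallest gap to any locus of the chromosome, hairpins included. Total depth was 7197515 reads in Sp9509 loci; library depth is not known. No test was made. The loci named are the 10 hairpins with most reads, the 2 deepest and the longest other locus of each class, the extremes of density, windows and empty stretches, and hairpin groups; others were chosen after their values were seen. Members, lists and rules were chosen with earlier results of these data known. Alternatives were read minimums of 10 and 100, other zones, distances and denominators, and chromosomes left out. Python 3.11.15, pandas 2.3.3, numpy 2.4.6, scipy 1.17.1 and matplotlib 3.10.9 were used, and the zone and neighbour steps were tested on simulated lists.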

Additional observations from a re-analysis of the deposited data

Results flagged for a closer look

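Outside the chromosomes, the 80 loci on the chloroplast sequence (chrC) held 60645 reads and the 47 loci on the mitochondrial sequence (chrM) held 6141 reads. Both sums exceed the 3 counts that a count of 0 allows, which any sum over so many called loci would do. These loci enter no comparison here.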

How the results depend on the processing

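Of 140 alternatives over 37 results, 84 stayed within the counting interval of the value and 54 fell outside it. The other 2 turned a ratio whose interval had excluded 1. Hairpin counts have no interval and were judged by the size of their change. Ratios whose interval held 1 could also cross 1 and are counted among the 84 or the 54. The outer to inner ratio did so in the 22, 23 and 24 nt classes. With at least 10 reads per locus the density was 35.965 loci per Mb, shares were 22.6% for 21 nt, 19.7% for 24 nt and 45.6% without size call, two-strand shares were 72.1% for 21 nt, 65.03% for 22 nt and 91.03% for 24 nt, and loci over 600 bp were 34.8% of 21 nt, 24.5% of 22 nt and 15.2% without size call. There the median gap was 2028.5 bp, 70.6% of loci had a neighbour under 10 kb and 62.2% of loci without size call had a nearest locus of their own class. With at least 100 reads the density was 5.997, chr13 over chr17 was 1.17, and shares were 27.9% for 21 nt, 8.20% for 22 nt, 1.81% for 23 nt and 13.03% for 24 nt. Two-strand shares at that depth were 60.2% for 21 nt, 35.3% for 22 nt, 0 for 23 nt and 8.35% without size call, and loci over 600 bp were 73.2% of 21 nt, 69.1% of 22 nt, 0 of 23 nt, 87.96% of 24 nt and 38.1% without size call. The outer to inner ratio at that depth was 1.39 for all classes, 0.714 for 22 nt, 0.25 for 23 nt, 1.47 for 24 nt and 1.98 without size call.

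With 10 zones that ratio was 1.28 for all classes and 1.76 for 21 nt, with 3 zones 1.06 (1.058) for 21 nt, and with the first and last 1 Mb against the rest 1.03 for all classes. Without the outermost 20 kb it was 1.03 (1.025) for all classes and 1.06 (1.063) for 21 nt, and its median over chromosomes was 2 for 23 nt. Ends of 10 kb gave end to interior ratios of 5.995 for all classes, 11.5 for 21 nt and 9.45 for 24 nt, and ends of 50 kb 2.33, 4.25 and 2.84, with 3.61 for 22 nt. For loci without size call the ratio turned below 1, to 0.804 at the starts alone and 0.908 without chr20. The share of reads on chr5 was 6.33% without the 10 loci with most reads and 2.95% without hairpins, and that on chr12 was 25.1% and 30.2%. Neighbours under 5 kb were found for 59.98% of loci and under 20 kb for 85.4%, and the median distance between midpoints was 3106 bp. Where the cause is not in the setting itself, the cause was not tested. The ratios for chromosome ends and those without the outermost 20 kb were chosen after seeing the data, as were the counts without the deepest locus and with arms exchanged. No paired analysis was possible because a single list pools the 3 replicates, and leaving out a replicate could not be run for the same reason. Loci of 5 to 9 reads limit what can be said of strand and length.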
